A study of Mus musculus with 4 samples.

Results

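The clustered protocadherins are cadherin-like adhesion proteins that nerve cells use to tell their own branches from those of other cells. Their genes lie in 3 tandem arrays on mouse chromosome 18, and each gene of the alpha and gamma arrays has its own promoter and large variable first exon, which is spliced to a set of constant exons shared by the whole array. Beta genes have no such shared exons. In neurons each cell uses a small and largely random choice of these promoters, while the c-type genes at the 3' ends of the alpha and gamma arrays are used more widely. Most of these promoters are known to hold a conserved sequence element bound by CTCF, and most alpha genes hold a further CTCF site within the variable exon. Pcdhac2, Pcdhb1, Pcdhgc4 and Pcdhgc5 are known as the genes without the promoter element.

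The genes described here are all protein-coding genes of RefSeq GRCm38 whose symbols begin with Pcdha, Pcdhb or Pcdhg, 57 of the 21887 protein-coding genes on the chromosomes used. The alpha cluster has 14 of them, the beta cluster 22 and the gamma cluster 21. Members were chosen by name and position and not by a measured value, though earlier results of these data were known. In build mm10 coordinates the alpha cluster runs on chromosome 18 from 36930285 to 37188897, the beta cluster from 37264998 to 37521419 and the gamma cluster from 37661775 to 37841873, with overlapping genes taken as 1 span. The 100 kb flanks of neighbouring clusters meet, so the 76.1 kb between alpha and beta and the 140 kb between beta and gamma are each counted as 1 interval. Pcdhgb8 (gene ID 93705) is annotated as a transcribed pseudogene and is no member, and neither are Gm37013, Gm38666 and Gm38667, protein-coding entries that run from the alpha genes to the gamma end. No sequence of the locus is printed here.

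The chromatin came from embryoid bodies at day 6, balls of differentiating cells grown from mouse embryonic stem cells, of outbred B6:129Sv stock. All libraries came from stem cells with the genotype Trim33FF: UbcCreERT2, a conditional Trim33 allele with a tamoxifen-inducible Cre driven by the ubiquitin C promoter, and the labels record no treatment. There was 1 library each for CTCF, the zinc finger protein of insulators and loop anchors, for H3K27ac, a histone mark of active promoters and enhancers, for Trim33, a chromatin-binding TRIM protein of TGF-beta signalling, and for input DNA. With 1 library per antibody no value has a replicate check and no p-value is given. The values are descriptions of these libraries, set beside the same measure over the whole genome.

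By the authors' deposited table the lists hold 52446 CTCF, 30047 H3K27ac and 4426 Trim33 peaks, called from 33090822, 29995044 and 13643929 tags. The share of reads in peaks was 26.46%, 13.02% and 0.72% in the same order, so a missing Trim33 peak says the least. As a check of the label, H3K27ac stood at the starts of 6 of the 11 germ layer and pluripotency markers whose strand is known, namely Pou5f1, Sox2, Nanog, Eomes, Foxa2 and Sox1, and at none of T, Mesp1, Pax6, Tubb3 and Afp, beside 38.3% of other protein-coding genes, so the check is a weak one. Embryoid bodies are a mixture of cell types, and a peak in few cells cannot be told apart from weak binding in many.

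CTCF was the most frequent of the 3 marks in these clusters. It had 60 summits inside them, against 18 for H3K27ac and 3 for Trim33, and the whole lists rank in the same order by size. The gamma cluster held 23 CTCF summits in 180 kb, or 12.8 per 100 kb, the alpha cluster 22 in 259 kb (8.51 per 100 kb) and the beta cluster 15 in 256 kb (5.85 per 100 kb). The genome as a whole had 1.92 per 100 kb and chromosome 18 had 1.62. When the genome was cut into tiles as long as each cluster, at least as many CTCF summits were found in 0.873% of tiles for gamma, 3.1% for alpha and 8.62% for beta, with no matching of tiles for gene content. The 3 clusters thus ranked gamma, alpha, beta in CTCF density.

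Outside the clusters CTCF was sparse upstream and dense downstream. The 100 kb before Pcdha1 held no peak of any of the 3 lists. Over genome tiles of 100 kb the median was 1 CTCF summit, and 0 for H3K27ac and for Trim33, so so few is not unusual. The gap between alpha and beta held 1 CTCF peak, with a fold of 23.3 over background, higher than 89.4% of the CTCF list. All folds are those the authors deposited, and they order peaks inside 1 list but not between lists. This peak lay from 37216999 to 37218621, with its summit 29.5 kb past the alpha end and with neither H3K27ac nor Trim33. An enhancer of the alpha cluster with CTCF sites, known as HS5-1, is described downstream of the alpha constant exons, but its coordinates are not in the sources used here and the peak was not matched to it. The gap between beta and gamma held 1 CTCF peak, of fold 13.4, from 37655461 to 37656016.

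**Figure D1:**
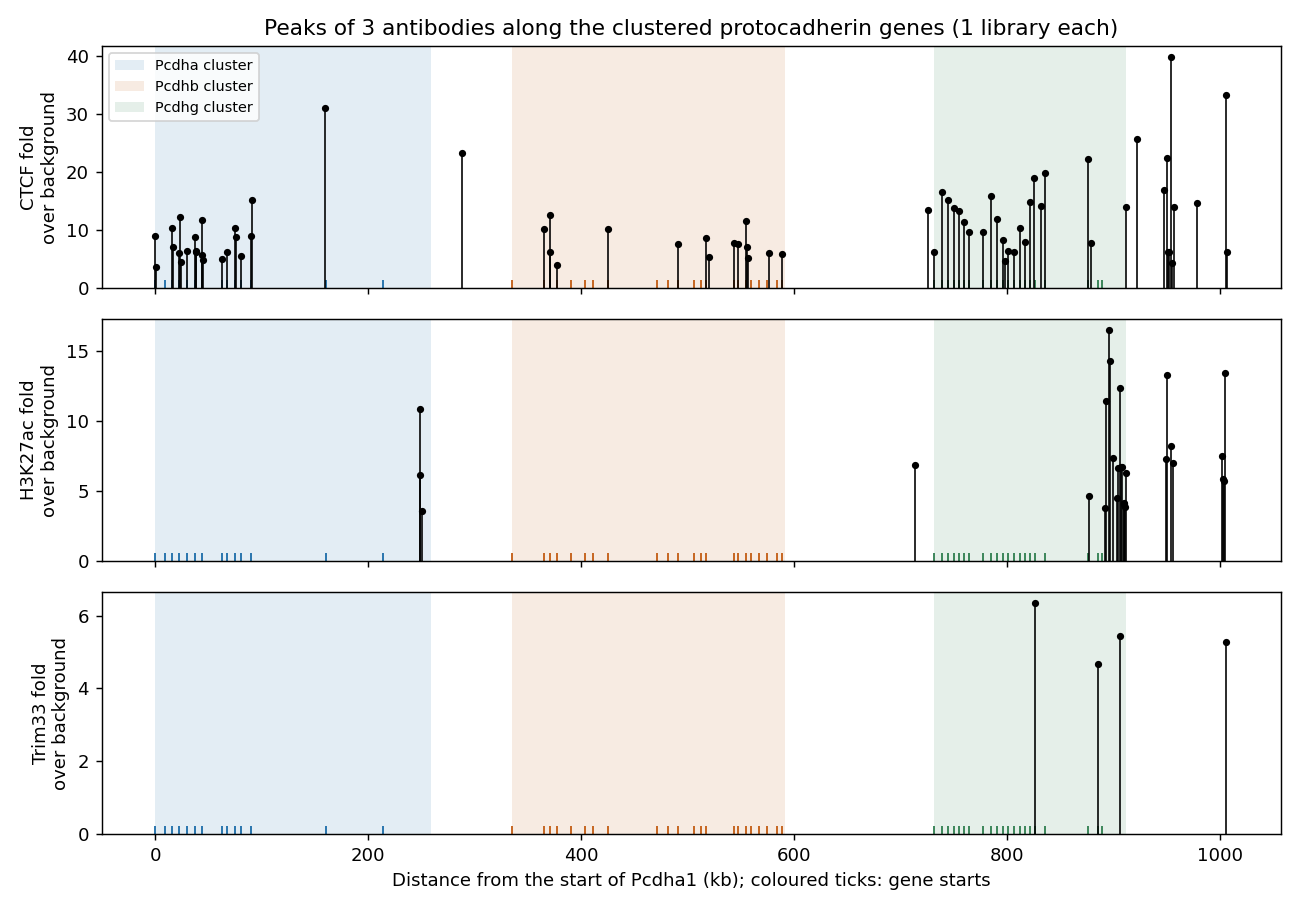
Fold over background of each CTCF, H3K27ac and Trim33 peak (vertical axes) against the distance from the start of Pcdha1 in kb, with the 3 clusters shaded and gene starts as ticks, 1 library per antibody. CTCF summits stand along all 3 clusters, 60 in all, while H3K27ac is gathered at the 3' end of the gamma cluster and in the flank after it.

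The next question was whether CTCF stood at the individual gene starts. A summit lay within 1 kb of the start of 41 of the 57 members (71.9%), where the share over 17492 other protein-coding genes with a known strand was 19.9%. By cluster it was 12 of 14 alpha genes (85.7%), 10 of 22 beta genes (45.5%) and 19 of 21 gamma genes (90.5%). For H3K27ac the share was below the background, with a summit at 1 of 57 member starts (1.75%) against 38.3% of the other genes. Counted at either end of a gene, it was 36.8% against 39.6%, because all gamma genes share an acetylated end. Trim33 stood at 2 of 57 (3.51%) against 6.09%, a share near the background. Of the other genes with CTCF at the start, 59.6% also had H3K27ac there, and of the 41 members with CTCF, 1 did (2.44%). That gene was Pcdhgc3.

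**Figure D2:**
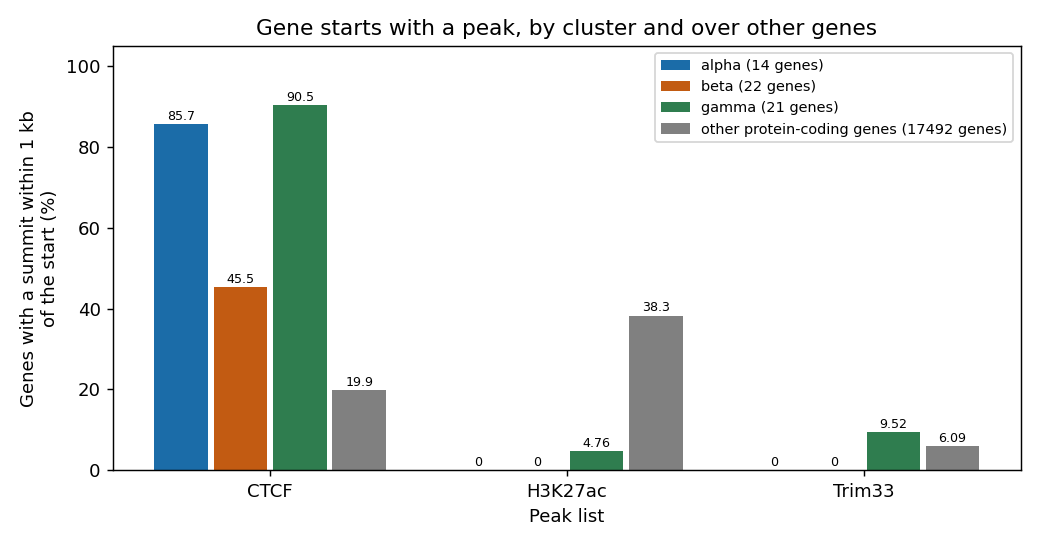
Percent of genes with a summit within 1 kb of the start, for each peak list (groups of bars), in the alpha, beta and gamma clusters and in other protein-coding genes (grey). For CTCF the clusters reach 85.7%, 45.5% and 90.5% beside 19.9% in other genes, and for H3K27ac they reach 0%, 0% and 4.76% beside 38.3%.

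The CTCF summits sat close to the annotated starts. In 39 of the 41 members with CTCF (95.1%) the nearest summit was within 250 bp of the start, against 48.7% of other genes with CTCF within 1 kb. It lay before the start in 27 of the 41 (65.9%), against 47.7% in the other genes. The median position was 25 bp before the start in gamma (nearest summit of 19 genes, from -92 to 339 bp, where negative values are upstream) and 41.5 bp before it in beta (10 genes, from -201 to 38 bp). In alpha the median was 85 bp after the start (12 genes, from -167 to 455 bp). Annotated starts differ in how far upstream they reach, so offsets of this size also reflect the annotation.

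The alpha genes, which encode the protocadherins first described as cadherin-related neuronal receptors, often carried more than 1 summit. Within 1 kb of the start, 7 of the 14 alpha genes had more than 1, against 2 of 22 beta genes and 0 of 21 gamma genes, and against 3.17% of other genes. Over all members that was 9 of 57 (15.8%). Besides 11 alpha summits within 250 bp of a start, 8 lay further into the gene, at 455 bp in Pcdha8, 464 bp in Pcdha12, 498 bp in Pcdha10, 527 bp in Pcdha3, 560 bp in Pcdha4, 570 bp in Pcdha7, 609 bp in Pcdha6 and 772 bp in Pcdha1. The 8 positions span 317 bp. Pcdha4, Pcdha6 and Pcdha7 each had a further summit at 1367, 1119 and 1442 bp. The inner summit was higher than the one at the start in Pcdha4 (fold 12.3 against 6.11), Pcdha7 (11.8 against 5.69) and Pcdha12 (15.1 against 8.99). It was lower in Pcdha1 (3.67 against 8.99), Pcdha3 (7.11 against 10.4), Pcdha6 (6.42 against 8.75) and Pcdha10 (8.75 against 10.4).

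**Figure D3:**
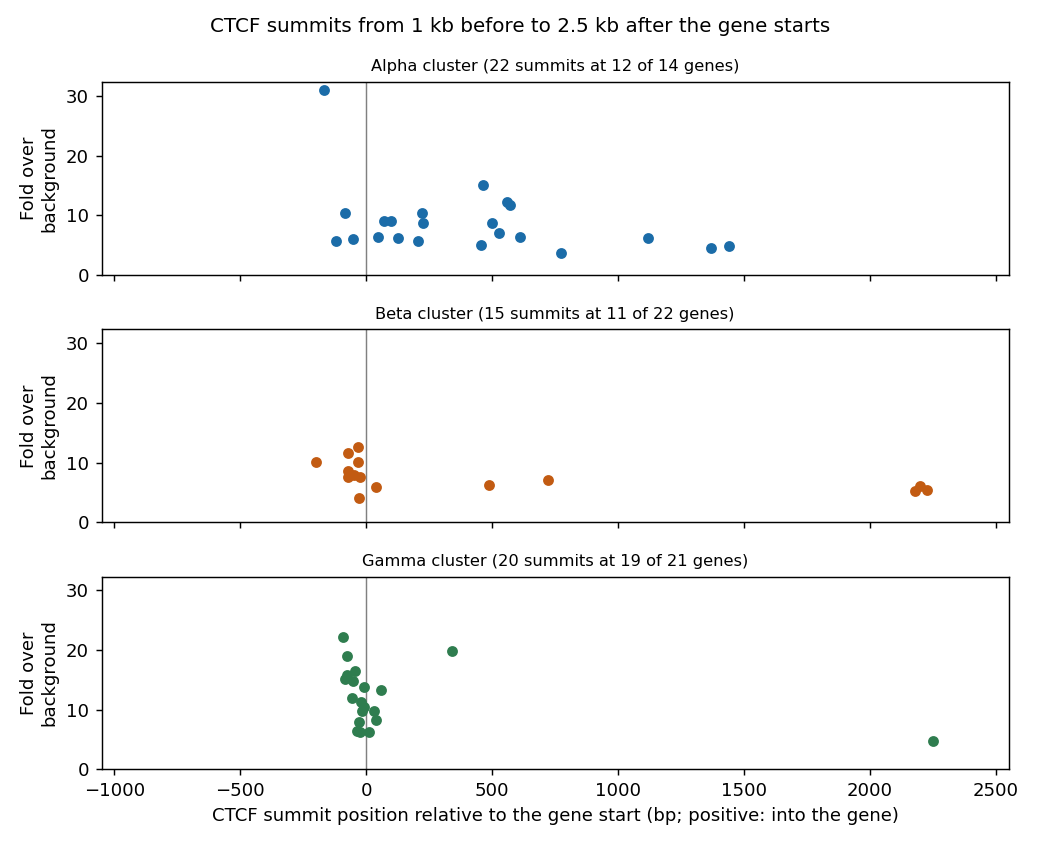
CTCF summits from 1 kb before to 2.5 kb after the starts of the member genes, by cluster, as fold over background against the position relative to the start in bp. Gamma summits gather at the start, while alpha has a second group of 8 summits between 455 and 772 bp.

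The remaining alpha genes had a single summit or none. Pcdha5 had a fold of 6.41 at 46 bp, Pcdha9 6.17 at 127 bp and Pcdha11 5.64 at -119 bp. Pcdha8 had the lowest value of a called alpha start, 5.02, and its summit was the inner one at 455 bp. Pcdha2 had no summit within 1 kb, and its nearest one lay 7.11 kb away, at Pcdha3. Among the 12 alpha genes other than c-type, 11 therefore had a CTCF summit within 1 kb of the start, counting the inner one of Pcdha8.

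The c-type genes fell into 2 kinds. Pcdhac1 (gene ID 353236) had the highest CTCF peak of the 3 clusters, with a fold of 31.0 and its summit 167 bp before the start, and Pcdhgc3 (gene ID 93706) had the highest of the gamma cluster, 22.2 at 92 bp before the start. Pcdhac2, Pcdhgc4 and Pcdhgc5 had no CTCF summit within 1 kb. The nearest one to Pcdhac2 was 53.7 kb away, the one at Pcdhac1, and for Pcdhgc4 and Pcdhgc5 it was 6.13 and 10.6 kb away. From the Pcdhac1 peak to the end of the alpha cluster, 98.9 kb held no CTCF summit, the longest such stretch in the 3 clusters. These 3 genes and Pcdhb1, whose nearest summit was 29.8 kb away, are those named above as known to lack the promoter element.

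The beta genes were the least often bound. The 10 with a summit at the start were Pcdhb3, with a fold of 12.7, Pcdhb17 with 11.6, Pcdhb2 and Pcdhb8 with 10.2 each, Pcdhb14 with 8.61, Pcdhb15 with 7.83, Pcdhb11 and Pcdhb16 with 7.58 each, Pcdhb22 with 5.91 and Pcdhb4 with 4.05, the lowest of any called member. In 9 of these the nearest summit lay before the start. Pcdhb3 and Pcdhb17 had a second summit within 1 kb, at 486 and 721 bp. Deeper in 3 of the short beta genes there were further summits, at 2227 bp in Pcdhb14 (fold 5.36), 2179 bp in Pcdhb17 (5.22) and 2200 bp in Pcdhb20 (6.12), and the last is the only summit listed in that gene.

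The 12 beta genes without a summit at the start were Pcdhb1, Pcdhb5, Pcdhb6, Pcdhb7, Pcdhb9, Pcdhb10, Pcdhb12, Pcdhb13, Pcdhb18, Pcdhb19, Pcdhb20 and Pcdhb21. Most of them come in runs of neighbours, such as Pcdhb5 to Pcdhb7 and Pcdhb18 to Pcdhb21. The longest stretch of the beta cluster without CTCF was 66.3 kb, from the Pcdhb8 peak to the Pcdhb11 peak, and held the starts of Pcdhb8, which lies 201 bp after its own peak's summit, Pcdhb9 and Pcdhb10. The authors kept uniquely aligned reads only, and protocadherin exons resemble each other, so a start without a listed peak is not shown to be free of CTCF. How much of the locus could be aligned uniquely was not tested.

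**Figure D4:**
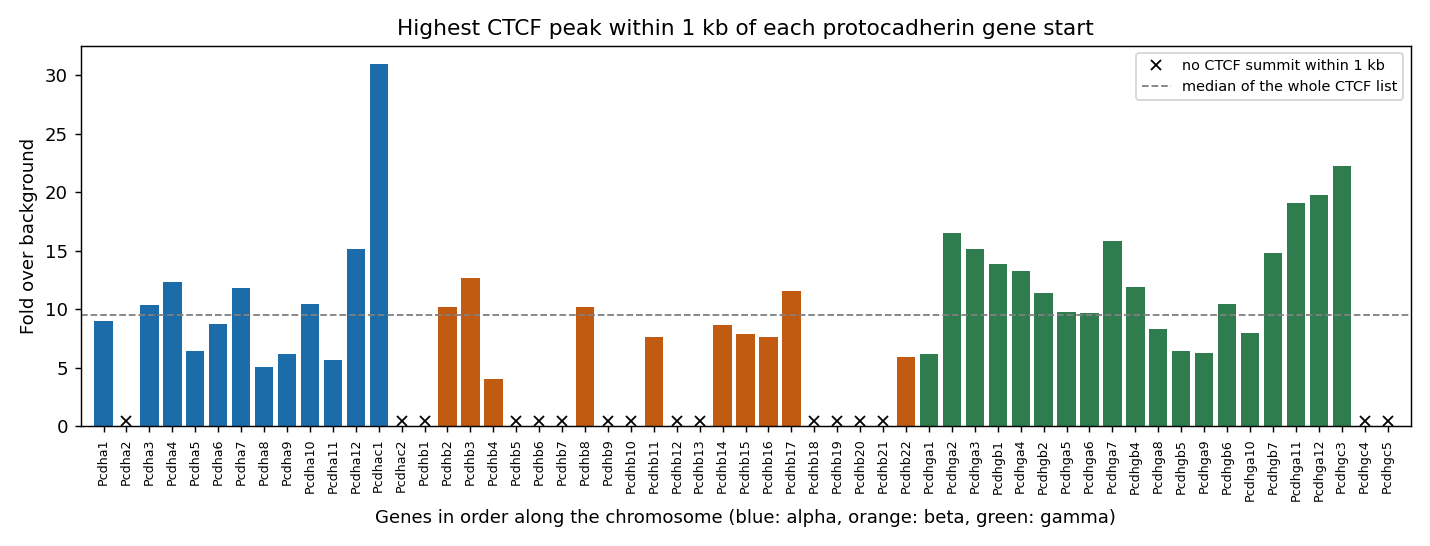
Fold of the highest CTCF peak within 1 kb of each of the 57 gene starts, in order along the chromosome, with crosses for the 16 genes without one and a dashed line at the median of the whole CTCF list (9.46). Bars range from 4.05 at Pcdhb4 to 31.0 at Pcdhac1, and 12 of the 16 crosses are in beta.

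The gamma genes had the most regular pattern, with exactly 1 summit within 1 kb of each of 19 starts. All 12 Pcdhga genes and all 6 Pcdhgb genes, which are interspersed along the array, had one. Their medians were close, with a fold of 11.5 for Pcdhga (from 6.17 at Pcdhga1 to 19.8 at Pcdhga12) and 11.6 for Pcdhgb (from 6.39 at Pcdhgb5 to 14.8 at Pcdhgb7). High values stood at both sides of the array, though Pcdhga1, its first gene, had the lowest of the called gamma starts. They were at Pcdhga2 (16.5), Pcdhga3 (15.2) and Pcdhgb1 (13.8) on the 5' side, and at Pcdhgb7 (14.8), Pcdhga11 (19.0) and Pcdhga12 on the 3' side. Between them Pcdhga8, Pcdhgb5, Pcdhga9 and Pcdhga10 had 8.29, 6.39, 6.26 and 7.93. The middle of the array also had Pcdhga7 with 15.8 and Pcdhgb4 with 11.9, so the order was not a smooth gradient. The other starts had folds of 13.3 at Pcdhga4, 11.3 at Pcdhgb2, 10.4 at Pcdhgb6, 9.77 at Pcdhga5 and 9.69 at Pcdhga6. Inside genes, away from the starts, gamma had a summit of fold 4.70, its lowest, 2248 bp into Pcdhga8 and one of fold 7.80 at 2536 bp in Pcdhgc3. The pseudogene Pcdhgb8 had a CTCF summit 138 bp before its start, with a fold of 14.2, like its protein-coding neighbours.

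In height, the CTCF peaks of gamma lay above the middle of the list and those of beta and alpha below it. Over all summits inside a cluster the median fold was 11.9 in gamma (from 4.70 to 22.2), 7.58 in beta (4.05 to 12.7) and 6.77 in alpha (3.67 to 31.0), beside 9.46 for the whole list. Held to a −log10 q of at least 10, the beta median stayed at 7.58 and the alpha median was 8.75, so their order turned. The median gamma peak was higher than 61.0% of the list, the median beta peak than 36.5% and the median alpha peak than 28.3%. The highest peak within 1 kb of a member start had a median of 10.2 over the 41 genes. It was 12.0 over the 3487 other genes with CTCF within 1 kb of the start. In Pcdha4, Pcdha7, Pcdha8 and Pcdha12 that peak was the inner one. Above the list median were 16 of 23 gamma summits, 4 of 15 beta summits and 6 of 22 alpha summits.

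Acetylation followed a different map. The beta cluster had no H3K27ac peak, nor had the gap between alpha and beta, and the median over tiles of either length was also 0. The alpha cluster had 3, all within 2.34 kb of each other, 34.7 to 36.7 kb past the start of Pcdhac2 and thus between that variable exon and the end of the array. Their folds were 10.9, 6.17 and 3.57, and none overlapped CTCF or Trim33. Tiles of the same length with at least 3 H3K27ac summits made up 29.4% of the genome, so this count was near the background.

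The gamma cluster had 15 H3K27ac summits, a number reached by 2.59% of tiles of its length, and 14 of them lay after the start of Pcdhgc5. In those last 22.3 kb, which run past the last variable exon to the end of the constant exons, H3K27ac peaks covered 12.4 kb, or 55.7%. A share that high was found in 0.0344% of tiles of that length. The stretch was marked off after its peaks were seen and the tiles were not, so this percentage can overstate how unusual it is. In the 158 kb of the cluster before it, 1 H3K27ac peak covered 0.176%. The highest 3 peaks, with folds of 16.5, 14.3 and 12.4, lay from 37823833 to 37826146, from 37826318 to 37828181 and from 37834569 to 37836329. The highest exceeded 93.1% of the H3K27ac list. The single peak outside that stretch was at Pcdhgc3, 362 bp after the start and with a fold of 4.66, beside the CTCF peak of fold 22.2 but with no overlap.

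Only 1 CTCF peak of the 60 in the clusters overlapped H3K27ac (1.67%), beside 8.23% of the whole CTCF list. It was the last of the gamma cluster, with its summit 387 bp before the cluster end and a fold of 14.0. It touched 2 H3K27ac peaks, of fold 3.88 and 6.31. No H3K27ac summit was listed within 1 kb of the start of Pcdhgc5, where the nearest was 2102 bp into the gene, or of Pcdhgc4, where it was 6.57 kb away.

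**Figure D5:**
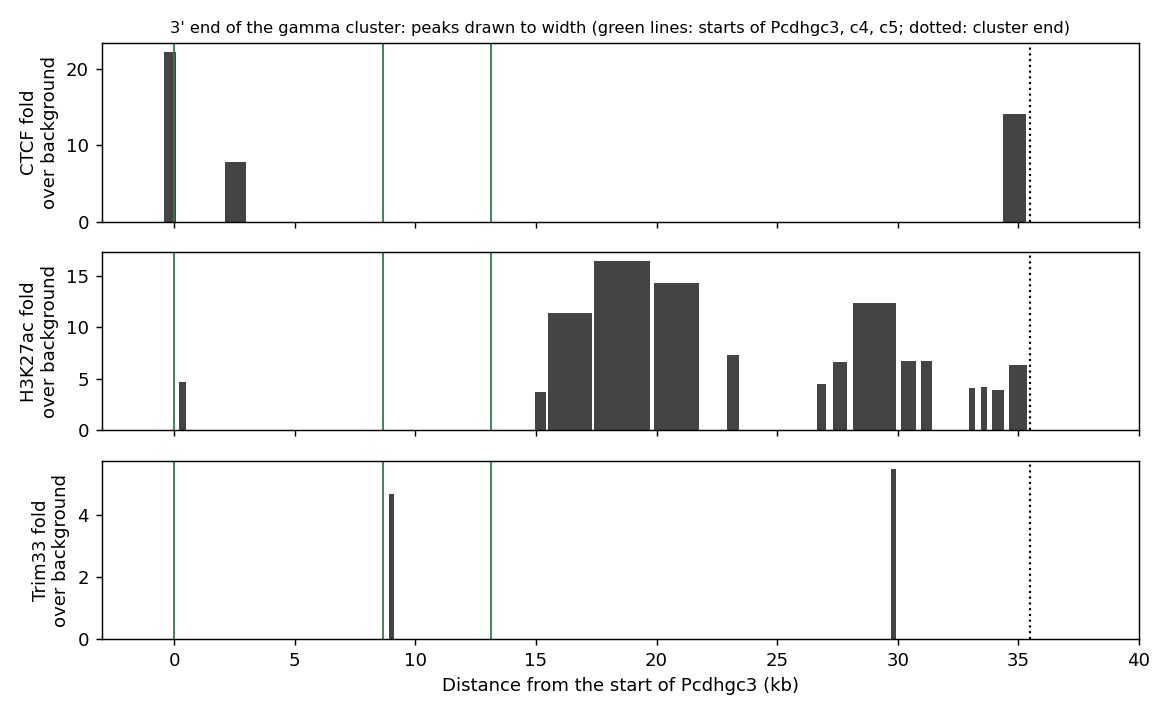
CTCF, H3K27ac and Trim33 peaks drawn to their width, with height as fold over background, against the distance from the start of Pcdhgc3 in kb. H3K27ac covers 55.7% of the stretch between the start of Pcdhgc5 and the cluster end (dotted line), while CTCF stands at Pcdhgc3 and at the cluster end.

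Trim33 had 3 peaks in the clusters, all in gamma and none in alpha or beta. A count of at least 3 was found in 2.04% of tiles of the gamma length. The highest, with a fold of 6.33, was at Pcdhga11 (gene ID 93723), 281 bp after the start and within the CTCF peak of fold 19.0. The next, of fold 5.45, lay from 37836128 to 37836331 and overlapped the H3K27ac peak of fold 12.4. The last, of fold 4.67, stood 353 bp after the start of Pcdhgc4 with neither CTCF nor H3K27ac, in a gene that had no summit of those lists within 1 kb. The median of the whole Trim33 list was 5.67, so 1 of the 3 was above it. Of the 3, 1 overlapped CTCF and 1 H3K27ac, where 44.7% and 42.6% of the whole Trim33 list did. Of the 60 CTCF peaks in the clusters, 1 carried Trim33 (1.67%, beside 3.67% of the CTCF list).

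The flank after gamma was unlike the one before alpha. In 100 kb it held 11 CTCF, 8 H3K27ac and 1 Trim33 summits, and all but 2 of the CTCF summits lay inside Diaph1, which encodes a formin that builds actin filaments. At least 11 CTCF summits in 100 kb were found in 2.43% of tiles. The highest, from 37883362 to 37884223, had a fold of 39.7, above 99.4% of the list and above every peak within the clusters, and overlapped an H3K27ac peak of fold 8.20. At the higher-coordinate end of Diaph1, towards the histone deacetylase gene Hdac3, a CTCF peak of fold 33.3 overlapped a Trim33 peak of fold 5.26. An H3K27ac peak of fold 13.4 also stood at that end, but overlapped neither of them. In the gap between beta and gamma, Taf7, a gene of the general transcription factor TFIID, had an H3K27ac peak of fold 6.90 at its higher-coordinate end, and Slc25a2, a mitochondrial carrier gene, had no peak.

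The protocadherin genes outside the clusters, a list of 13 that includes Cdhr1, a photoreceptor cadherin gene, were set beside the members. Of the 10 with a known strand, CTCF stood at the start of 1, H3K27ac at 2 and Trim33 at 1, beside 19.9%, 38.3% and 6.09% of other genes. With only 10 genes, these counts cannot be placed above, below or at that background. The genes with a summit were Pcdh7, with folds of 18.9, 19.2 and 5.22 for CTCF, H3K27ac and Trim33, and Pcdh18, with an H3K27ac fold of 7.75. The others, among them Pcdh8, Pcdh9, Pcdh10, Pcdh17 and Pcdh19, had no summit within 1 kb. Of 16 regulators of the clusters and of CTCF loops with a known strand, 10 had H3K27ac at the start, 5 had CTCF and 3 had Trim33, beside 38.3%, 19.9% and 6.09% of other genes. All 3 marks stood at Ctcf (CTCF fold 14.9, H3K27ac 21.8, Trim33 4.93), at Smc3, a cohesin subunit gene (18.3, 18.6 and 6.03), and at Smchd1, a chromatin protein gene that represses clustered protocadherins in mouse (8.22, 14.5 and 6.83). Dnmt3b, the DNA methyltransferase gene that methylates these promoters in mouse embryos, had H3K27ac alone, with a fold of 6.36. So had Zfp143, Mau2, Wiz and Smc1a. No summit of any list stood at the starts of Setdb1, Dnmt1, Dnmt3a, Lrif1, Stag1 and Wapl.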

How the data were processed

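Peaks were called by the authors per antibody against the input, with MACS 2.1.0 according to their deposited summary. The submitters' processing notes name BWA 0.7.12, SICER 1.1, MACS and MACS2 and the builds mm10 and hg19. Reads were kept by the authors when aligned uniquely (mapping quality of at least 25) and not duplicated, and 83 Trim33, 210 CTCF and 407 H3K27ac peaks in blacklisted regions were removed. The deposited lists give per peak a fold (ratio over background), −log10 p and −log10 q values, an integer score (not used) and the summit. The input was used with 13643929 tags for Trim33 and 25729171 for the others.

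Gene positions came from RefSeq GRCm38.p6, the assembly of mm10. Strands came from a RefSeq promoter table without chromosome 18. Members were read in the direction of rising coordinates. Of the other protein-coding genes, 17492 had a strand and form the background, and 4338 had none and were left out. For the same reason 11 of 16 markers, 16 of 20 regulators and 10 of 13 protocadherin genes outside the clusters were counted. Summits were counted within 1 kb of a start, and an overlap of peaks meant at least 1 bp in common. Tiles do not overlap and include the clusters. Python 3.11.15, numpy 2.4.6, pandas 2.3.3 and matplotlib 3.10.9 were used, and the counting was tested on simulated data. Members and lists were chosen with earlier results of these data known. All members may be named, and so may their peaks, neighbours and list genes. The window over the first exon and the stretch from the Pcdhgc5 start to the gamma end were added after seeing the data.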

Additional observations from a re-analysis of the deposited data

How the results depend on the processing

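No paired analysis was possible because each antibody had 1 library, and no library could be left out. Of 88 alternative values, 67 stayed within 1.5 times of the main count and 21 did not (for a median fold, any change is counted as one). The 67 include counts of 0 that stayed 0, for H3K27ac peaks in beta and Trim33 peaks in alpha and beta. Under the stricter peak filters those counts could not have changed. With peaks above the median fold of their own list, CTCF stood at 24 member starts in place of 41 (12% of other genes), at 6 in alpha and 4 in beta, H3K27ac at 0 and Trim33 at 1. The same setting left 6 CTCF peaks in alpha and 4 in beta, 1 H3K27ac peak in alpha and 6 in gamma, and 1 Trim33 peak in gamma. With a −log10 q of at least 10, H3K27ac and Trim33 stood at 0 member starts (36.7% and 0.743% of other genes), and gamma had 9 H3K27ac and 0 Trim33 peaks, with 637 of the 4426 Trim33 peaks left in the list. The median CTCF fold was then 8.75 in alpha, 7.58 in beta and 12.6 in gamma, beside 10.9 for the list so filtered, so alpha came above beta. Counting either gene end gave 21 members with H3K27ac (36.8%, beside 39.6% of other genes), near the background in place of far below it, since all gamma genes share 1 acetylated end. The window over the first exon gave 2 members with H3K27ac. With 50 kb flanks, 5 H3K27ac and 0 Trim33 peaks were left outside the clusters. Summits within 1 kb in place of overlap gave 2 CTCF peaks with H3K27ac. The 0.72% of Trim33 reads in peaks limits what its absences show.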
